A study of Mus musculus with 12 samples.

Results

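The proteasome subunit genes were taken as all protein-coding genes whose symbol, looked up by Ensembl identifier, starts with Psma, Psmb, Psmc, Psmd, Psme or Psmg. The rule found 51 of the 37991 gene identifiers in the count tables, which carry 49 distinct symbols. Their RNA was measured by poly(A) RNA-seq in the hippocampus of 12 C57BL/6N mice, 6 wild type (libraries labelled Wildtype) and 6 homozygous for a constitutive Gadd45a deletion (Gadd45a-KO), with 1 library per mouse. The mice were littermates from heterozygous parents, 6 to 7 months old by the labels (the methods of the study give another age range), and all had undergone the passive avoidance (PA) test, in which a mouse learns to avoid a compartment where it received a foot shock, 1 h before the tissue was taken. In the mutant allele the first 3 exons of Gadd45a are replaced by a neomycin cassette with its own PGK promoter, exon 4 remains, and the deletion is present in every cell of the body. The data analysed here hold no untrained group. The question put to the data here is whether the mRNA levels of the proteasome particles differed between the labels.

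The proteasome is the barrel-shaped protease that degrades most ubiquitin-tagged proteins of a cell. Its 20S core is a stack of alpha rings, which form the gate, and beta rings, which hold the active sites. The 19S cap binds the ubiquitin chain, removes it and threads the unfolded substrate into the core, and core and cap together make up the 26S proteasome. Other activators can take the place of the cap, and dedicated chaperones assemble core and cap. After interferon signalling, immunoproteasome beta subunits replace the constitutive catalytic ones. In neurons, degradation by the proteasome contributes to synaptic plasticity and to memory consolidation.

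The libraries held between 44594261 and 55540601 reads on genes. Gadd45a itself went against the labels: 102 to 154 reads lay on the gene in the Wildtype libraries and 946 to 1179 in the Gadd45a-KO libraries, a log2 fold change of 3.06 (adjusted p = 1.33e-10, edgeR quasi-likelihood test). A gene count does not show on which exons these reads lay, so the directions given here are those of the library labelled Gadd45a-KO over the library labelled Wildtype. Levels are given in CPM (reads on a gene per 1000000 reads on all genes, scaled by TMM normalization factors). The summed level of 6 thalamic marker genes was 85.7 to 134 CPM in 10 libraries, and 305 and 457 CPM in Gadd45a-KO replicates 2 and 3. Oligodendrocyte markers had a median log2 fold change of 0.45 over 5 genes, with summed levels of 2180 to 3464 CPM under the Wildtype label and 2817 to 6898 CPM under the Gadd45a-KO label. Hippocampal neuron markers were abundant in every library, with summed levels of 7734 to 9160 CPM, of which Camk2a alone gave 5097 to 6316 CPM. Their median log2 fold change was -0.04 over 7 genes, with 2 above 0. Prox1 ranged from 79.1 to 196 CPM and Wfs1 from 90.5 to 209 CPM over the libraries. The share of counted and uncounted reads that lay on no gene was 12.6% to 13.9% under the Wildtype label and 11.5% to 12.6% under the Gadd45a-KO label, with no overlap (12.57% was the highest Gadd45a-KO value and 12.64% the lowest Wildtype value), and its part in the results was not tested. None of the 9 marker lists had a member past the threshold. In bulk tissue, fewer cells of a type and less RNA per cell cannot be told apart.

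Of the 51 members, 47 passed the filter on low counts and entered the test. At a false discovery rate (FDR) of 1%, 1 member was lower in the Gadd45a-KO libraries and 0 were higher (edgeR quasi-likelihood test), against 2.62% of all 16399 tested genes lower and 0.0244% higher. The count was 1 lower and 0 higher with DESeq2 as well, where 3.7% of all genes were lower and 0.101% higher. It was 0 lower with RLE size factors, with library size alone and with no or a stricter filter on low counts. An offset for length or GC content also gave 0, as did 11 of the 12 fits that left out 1 library. In those of these fits that held all 12 libraries, 1.63% to 2.59% of all tested genes were lower. For the fits without 1 library that share was not counted. At an unadjusted p under 0.05 the count was 1 of 47 members, where 13.7% of all tested genes were under that limit. The member that was lower was Psme4, and the adjusted p-values of the other 46 lay between 0.532 and 0.999. The median log2 fold change was 0.02 over the members and 0.00 over all tested genes, and 34 of the 47 members had a value above 0, compared with 51.8% of all tested genes.

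**Figure D1:**
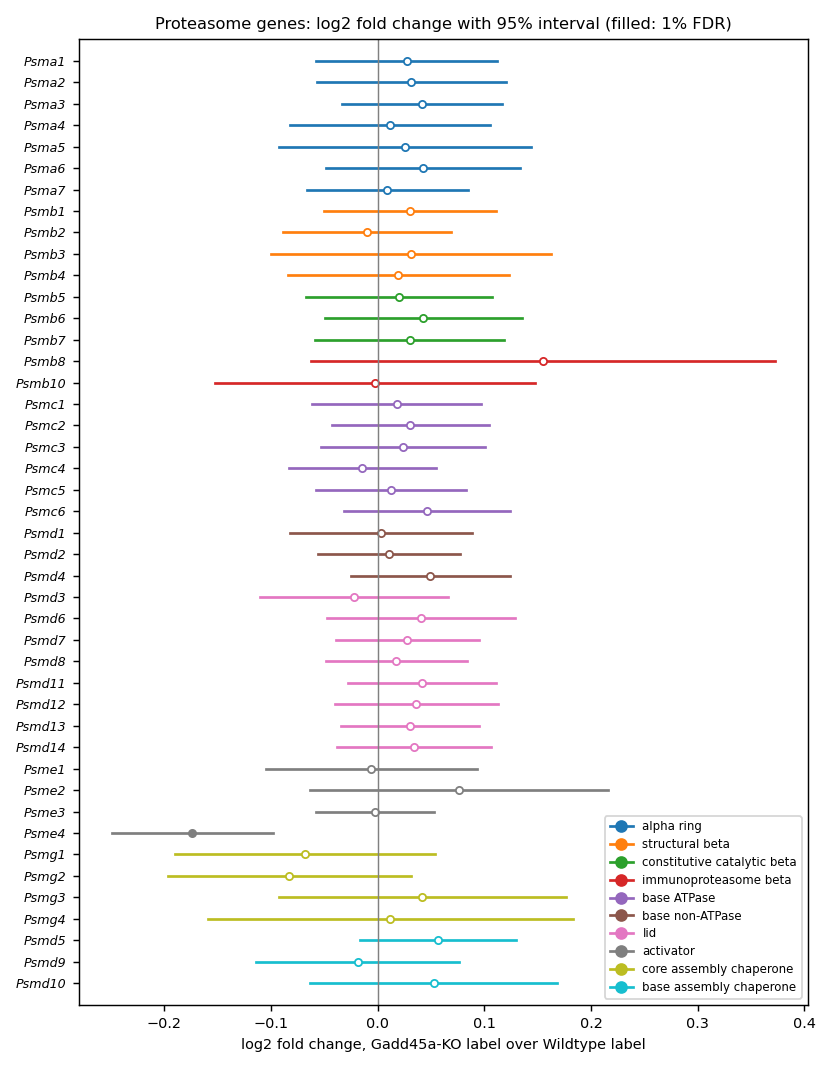
Log2 fold change (library labelled Gadd45a-KO over library labelled Wildtype, 6 libraries each) of 44 proteasome genes with the 95% confidence interval of the edgeR fit, ordered and coloured by class. The filled point is Psme4 at -0.17, the only plotted member past 1% FDR; the intervals of the other genes include 0. Psmb11, Psma8 and Psmc3ip, whose intervals are wide, are left out.

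The regulatory sequence of the members is shown before their values. Stretches of 30 bases around short promoter motifs are shown for Psme4, the member that was lower, and for members of the core and an assembly chaperone that did not pass the test. The motifs were searched on both strands in RefSeq promoter windows of 300 bases (250 before and 50 after the start, GRCm38.p6), which were found for 41 of the 49 symbols. Distances are from the RefSeq start, which can differ from the gene start in the annotation used for the counts. For Psme4 the annotated gene starts upstream of the RefSeq start, at chr11:30671726. The coordinates are those of each stretch's only exact match in NCBIM37 (mm9), the build of the count tables. The letters TGACNNNGC, the core of the antioxidant response element to which the proteasome gene regulator Nfe2l1 binds, were in the windows of 6 of 41 members (14.63%) and in 13.99% of the 27025 genes with a window. The sequences below run 5′ to 3′ on the strand of the gene, with the match in capitals, and the match of Psme4 lies on the opposite strand.
Psme4, chr11:30671758-30671787, plus strand, match starting 7 bases before the start: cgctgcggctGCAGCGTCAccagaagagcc
Psmb5, chr14:55236860-55236889, minus strand, match starting 47 bases before the start: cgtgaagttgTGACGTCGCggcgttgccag
Psmb6, chr11:70338840-70338869, plus strand, match starting 9 bases before the start: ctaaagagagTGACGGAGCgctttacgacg
Psmd9, chr5:123678158-123678187, plus strand, match starting 31 bases before the start: atctagccggTGACCCCGCccacttccaag

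The ETS motif, searched as CCGGAAG, was in the windows of 15 of 41 members (36.59%) and of 9.93% of all genes with a window. It is shown for Psme4 and for members of the activators, the core and the cap that did not pass the test, with 1 match printed per gene. The windows of Psma6 and Psme3 hold further matches nearer the start, which are not shown. The capitals mark the match, on the opposite strand for Psmc1 and Psmd2.
Psme4, chr11:30671711-30671740, plus strand, match starting 53 bases before the start: gtggccccgccCCGGAAGtgacttgaggcc
Psme3, chr11:101177409-101177438, plus strand, match starting 107 bases before the start: gggcacaaggcCCGGAAGctccgacagccc
Psma6, chr12:56499669-56499698, plus strand, match starting 132 bases before the start: agagccaccacCCGGAAGcccgcggaccgc
Psmc1, chr12:101348373-101348402, plus strand, match starting 28 bases before the start: tggtggatgcaCTTCCGGcggtggcgattt
Psmd2, chr16:20651688-20651717, plus strand, match starting 26 bases before the start: tccgcagggcgCTTCCGGtctggaggacaa

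The CCAAT box was in 15 windows (36.59%, against 41.06% of all genes), and the nuclear respiratory factor 1 letters GCGCATGCG were in the windows of Psma2 and Psmg1 (4.88%, against 1.95%). These matches describe the windows and were not tested as binding sites.

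The standard subunits of the 26S proteasome, 14 of the core and 17 of the cap, showed no called difference. Their log2 fold changes ranged from -0.02 (Psmd3) to 0.05 (Psmd4), 28 of 31 were above 0, and 0 passed the test. The 95% intervals of 30 of the 31 lay within 0.15 of 0 on the log2 scale and over all 31 the intervals ran from -7.36% to 11.9%. The exception was Psmb3, with an upper limit of 0.16. The median within-group SD of log2 CPM was 0.0593 for these genes, and 0.0787 over the 7549 tested genes between their lowest and highest CPM. The genes were not matched by level within that range, and the part of read depth in the gap was not tested.

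In the alpha rings, 7 of 7 standard genes (Psma1 to Psma7) had log2 fold changes between 0.01 and 0.04, and 0 passed the test (adjusted p from 0.699 to 0.954, edgeR). Psma6 had the highest level per kb of merged exons among them, with a median of 52.5 CPM per kb, and Psma3 the lowest, with 9.15 CPM per kb. Per kb of coding transcript these places were held by Psma7 (71.7) and Psma5 (11.5). Psma8, which replaces Psma7 in spermatocytes, was near the limit of detection with 5 to 23 reads per library, 0.180 to 0.378 CPM (median 0.254) under the Wildtype label and 0.0981 to 0.443 CPM (median 0.244) under the Gadd45a-KO label. At this depth its interval, from -36.1% to 55.9%, leaves its difference undetermined.

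Among the catalytic beta subunits, Psmb5, which carries the chymotrypsin-like site, ranged from 52.1 to 61.0 CPM (median 58.4) in the Wildtype libraries and from 56.3 to 61.3 CPM (median 58.5) in the Gadd45a-KO libraries. Psmb6, with the caspase-like site, ranged from 60.1 to 68.0 CPM (median 63.3) and from 62.3 to 71.9 CPM (median 64.8), in the same order. Psmb7, with the trypsin-like site, ranged from 87.2 to 102 CPM (median 94.5) and from 91.1 to 100 CPM (median 96.2). The groups overlapped for each of these 3 genes, and the log2 fold changes were 0.02 (SE 0.0408), 0.04 (SE 0.0430) and 0.03 (SE 0.0413). The structural beta subunit Psmb1 had the highest level per kb in the core, 82.8 CPM per kb, with 82.0 to 88.3 CPM (median 85.5) against 82.3 to 95.9 CPM (median 86.1) and a log2 fold change of 0.03 (adjusted p = 0.828, edgeR).

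The measured immunoproteasome genes had lower levels per kb than their constitutive counterparts, 0.955 CPM per kb for Psmb8 against 63.5 for Psmb5 and 13.5 for Psmb10 against 78.4 for Psmb7. Psmb8, the counterpart of Psmb5, had 103 to 173 reads per library, which gave 2.13 to 2.85 CPM (median 2.49) in the Wildtype libraries and 2.23 to 3.29 CPM (median 2.73) in the Gadd45a-KO libraries. The groups overlapped, and its log2 fold change of 0.15 (SE 0.101, adjusted p = 0.575, edgeR), the highest of all members, had an interval from -4.24% to 29.4%. Psmb10, the counterpart of Psmb7, ranged from 15.7 to 21.0 CPM (median 16.9) and from 15.8 to 19.2 CPM (median 17.7), with overlapping groups and a log2 fold change of -0.0025 (SE 0.0702). The 10 genes of the interferon response and antigen presentation list had a median log2 fold change of 0.15, with 10 of 10 above 0 and 0 past the threshold, and 8 of 8 microglial markers were above 0 with a median of 0.06. Other lists were above 0 as well, with 5 of 5 astrocyte, 5 of 5 oligodendrocyte, 4 of 4 endothelial and 6 of 6 thalamic markers. Their medians were 0.11, 0.45, 0.11 and 1.06. By contrast, 2 of 7 hippocampal neuron, 2 of 4 choroid plexus and 0 of 1 tested lymphocyte markers were above 0. The part of these lists in the values of Psmb8 was not tested.

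As a ratio of CPM, Psmb8 stood at 3.49% to 5.01% of Psmb5 (median 4.25%) in the Wildtype libraries and at 3.96% to 5.36% (median 4.67%) in the Gadd45a-KO libraries. The difference in mean log2 ratio was 0.12, where the SD of the log2 ratio was 0.192 in the Wildtype and 0.160 in the Gadd45a-KO libraries. A two-sided exact permutation test of the means gave p = 0.245 (0.489 after Benjamini-Hochberg adjustment over 2 ratios, n = 6 per group). The smallest p this design allows is 0.00216. Leaving out 1 library at a time gave differences from 0.07 (without Wildtype replicate 3) to 0.17. For Psmb10 to Psmb7 the ratio was 16.6% to 22.5% (median 18.6%) and 16.3% to 20.2% (median 18.4%), and the difference in mean log2 ratio was -0.03 (exact permutation p = 0.690). These are ratios of read shares within 1 library and were not corrected for the lengths of the genes.

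Psmb9, the counterpart of Psmb6, was listed at 0 reads in all 12 libraries. A second identifier with the symbol Psmb9 covers nearly the same exons on the same strand (chr17:34318932-34324697 and chr17:34318933-34324709, minus strand), and was also listed at 0. Reads in exons shared by 2 genes were set aside as ambiguous by the counting, 347176 to 426675 per library over all genes, so the level of Psmb9 cannot be read from these tables. A second identifier of Psmd14, which lies inside Psmd14, was listed at 0 as well, and reads in their shared exons are missing from the count of Psmd14. Psmb11, the thymus-specific beta subunit, had 14 to 35 reads per library, 0.280 to 0.643 CPM (median 0.490) under the Wildtype label and 0.361 to 0.636 CPM (median 0.404) under the Gadd45a-KO label, and its log2 fold change of -0.10 (SE 0.210), the lowest of the core, had an interval from -31.4% to 27.7%.

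In the cap, 17 of 18 genes were tested, 0 passed the test, and 17 of 17 intervals lay within 0.15 of 0 on the log2 scale. Psmd4, the ubiquitin receptor with the highest value in the cap, ranged from 71.3 to 79.0 CPM (median 76.9) in the Wildtype libraries and from 75.2 to 82.7 CPM (median 78.3) in the Gadd45a-KO libraries, with overlapping groups and a log2 fold change of 0.05 (SE 0.0349, adjusted p = 0.616, edgeR). Psmd3, a lid subunit and the lowest value of the cap, ranged from 98.8 to 113 CPM (median 106) and from 98.8 to 110 CPM (median 105), with a log2 fold change of -0.02 (SE 0.0412, adjusted p = 0.894). Of the ATPases that unfold the substrate, 5 of 6 were above 0, with a median of 0.02. Of the lid genes, 7 of 8 tested were above 0, with a median of 0.03.

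Levels per kb differed more between subunits than between groups. The study reports a 3′ bias of its reads, which it explains by the poly(A) selection. The part of this bias in the levels per kb given here, for short and long transcripts, was not tested. In the cap, the ATPase Psmc5 had the highest level, 85.1 CPM per kb (111 to 123 CPM and 115 to 125 CPM in the Wildtype and Gadd45a-KO libraries), and the lid subunit Psmd11 the lowest, 7.73 CPM per kb (47.1 to 51.5 CPM and 47.9 to 52.2 CPM). Per kb of 1 coding transcript the levels of the cap ran from 17.4 to 90.2 CPM per kb, a 5.19-fold range. Both genes overlapped between the groups, with log2 fold changes of 0.01 (SE 0.0328) and 0.04 (SE 0.0324).

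**Figure D2:**
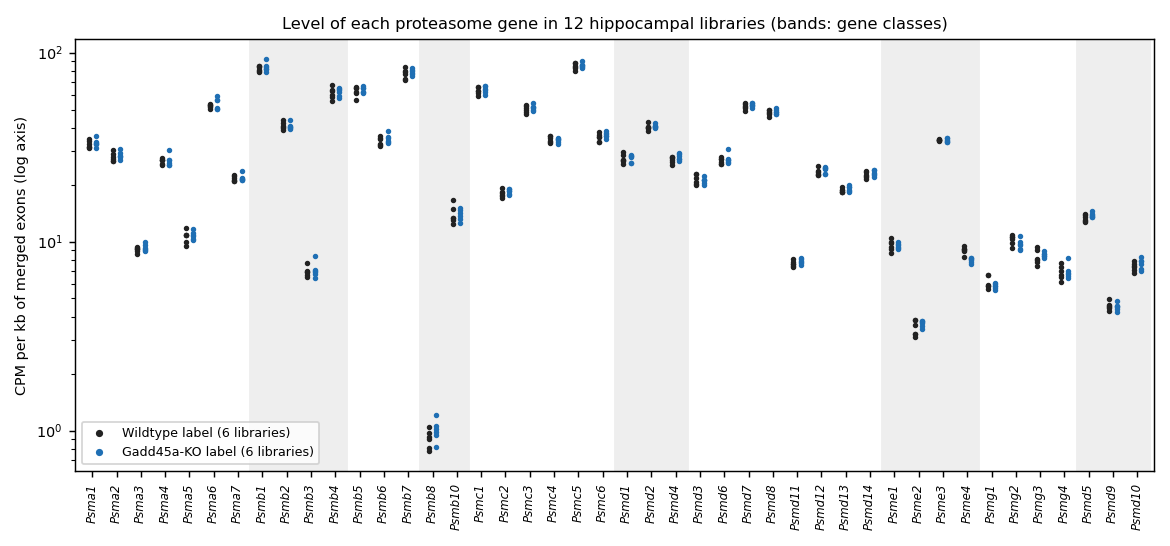
CPM per kb of merged exons on a log axis for 44 proteasome genes in the 6 Wildtype (black) and 6 Gadd45a-KO (blue) libraries; alternating bands separate the classes. Each point is 1 library, and the points of both labels lie over each other for most genes while the genes of 1 class spread widely, from 9.15 to 52.5 CPM per kb in the alpha rings.

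Several subunits have identical sequence elsewhere in the genome. Reads with an exact match elsewhere in the genome may have no unique alignment. For each gene, the share of 51-base transcript windows (the read length) with an exact match elsewhere in NCBIM37 was counted. It was under 1% for 34 of the 51 members, but 62.4% for Psmb3, 56.1% for Psmb5, 56.0% for Psma5 and 54.5% for Psme2, and 29.2% to 33.4% for Psma3, Psma4 and Psme2b-ps. Per kb of coding transcript, Psma5 (11.5 CPM per kb), Psma3 (12.5) and Psmb3 (20.8) had lower levels than the other standard core subunits, while Psmb5 (67.2) and Psma4 (55.0) did not. Between 6931433 and 9165582 alignments per library were not unique and were not counted, so the levels of these 7 genes are uncertain. The level of Psmd1, a scaffold subunit of the cap, is also uncertain, because it shares exonic sequence with the gene Armc9 on the same strand. Psmb5 likewise shares exonic sequence with the gene Mir686 on its strand. Among the 14 standard core subunits the highest level per kb of coding transcript was 7.20 times the lowest. Among the 8 with under 10% of such windows it was 2.94 times the lowest. The part of shared sequence in these ranges was not tested. The 6 tested members with at least 25% of such windows had log2 fold changes from 0.01 to 0.08, and 0 passed the test.

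**Figure D3:**
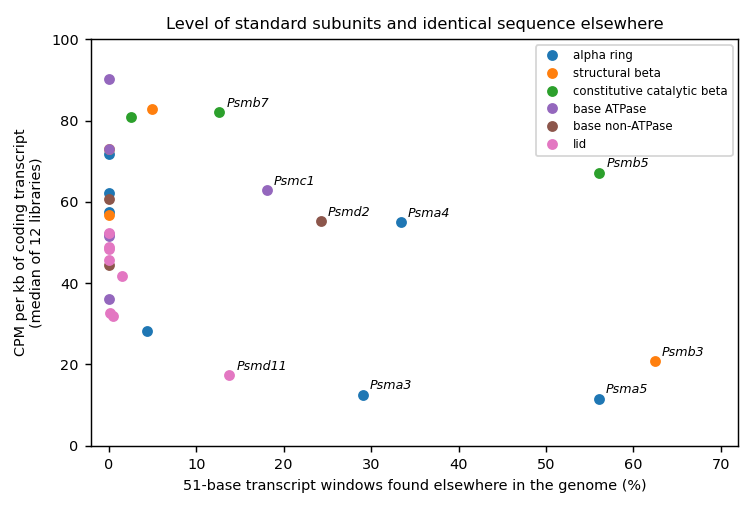
Median CPM per kb of coding transcript over 12 libraries against the share of 51-base transcript windows found elsewhere in the genome, for the 31 standard core and cap subunits coloured by class. Psma5, Psma3 and Psmb3 combine a share above 25% with a low level, whereas Psmb5 has a share of 56.1% and a level of 67.2.

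The called difference was that of 1 gene, Psme4, among the 4 tested activators, where 2.62% of all tested genes were called lower. It is no result for the activators as a particle. Psme4 encodes PA200, a single-chain activator of the nucleus that caps the core without the use of ATP. It ranged from 69.6 to 79.5 CPM (median 75.8) in the Wildtype libraries and from 63.4 to 68.8 CPM (median 67.5) in the Gadd45a-KO libraries. Every library labelled Gadd45a-KO lay below every library labelled Wildtype, as for 3.12% of all tested genes. The log2 fold change was -0.17 (SE 0.0352, adjusted p = 0.00842, edgeR), or -11.3% with a 95% interval from -15.9% to -6.59%. Psme4 (chr11:30671726-30780361, plus strand) has 8382 bases of merged exons, the longest of the tested members and at percentile 91.6 of all tested genes. Of the 1607 tested genes of 8 kb or more, 13.0% were called lower or higher and the median log2 fold change was -0.07; the share was 0.795% for genes of 1 to 2 kb. With an offset for length the value of Psme4 was -0.12 (adjusted p = 0.0732), and the adjusted p was above 0.01 in 11 of the 12 fits that left out 1 library (log2 fold change -0.19 to -0.15) and 0.0250 without both libraries high in thalamic markers (-0.19).

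**Figure D4:**
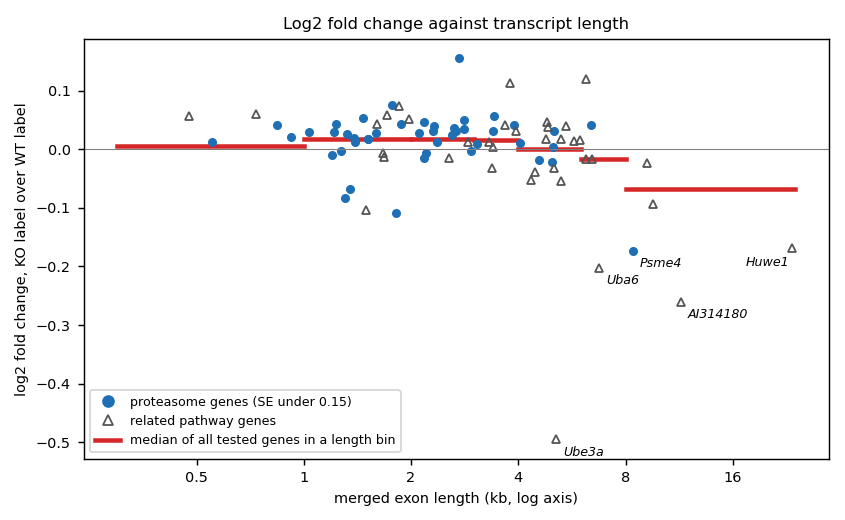
Log2 fold change (Gadd45a-KO label over Wildtype label) against merged exon length on a log axis for 45 proteasome genes (circles; the 2 with an SE above 0.15 are left out), 37 related pathway genes (triangles) and the median of all tested genes in 7 length bins (bars). Psme4 (8382 bases) and AI314180 (11447 bases) lie below the bar for genes of 8 kb or more, at -0.07. Huwe1 (23509 bases, -0.17) and Ddi2 (9553 bases, -0.09), which did not pass 1% FDR, also lie below it. Nedd4l (9213 bases, -0.02) lies above it.

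The 3 other tested activator genes did not pass the test. Psme1 and Psme2, which form the interferon-induced PA28 alpha-beta ring, ranged from 19.1 to 23.2 CPM (median 21.2) and from 5.53 to 6.80 CPM (median 6.07) in the Wildtype libraries. In the Gadd45a-KO libraries they ranged from 20.2 to 22.1 CPM (median 20.9) and from 6.09 to 6.69 CPM (median 6.6), with log2 fold changes of -0.0058 (SE 0.0461) and 0.08 (SE 0.0652). Psme3, the nuclear PA28 gamma activator, was the most precisely measured member, with 101 to 103 CPM (median 102) against 99.0 to 105 CPM (median 101), and its log2 fold change of -0.0025 (SE 0.0259) had an interval from -3.94% to 3.74%. The groups overlapped for all 3. Psme2b-ps, a copy of Psme2 with 4 to 12 reads per library, did not pass the filter on low counts.

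**Figure D5:**
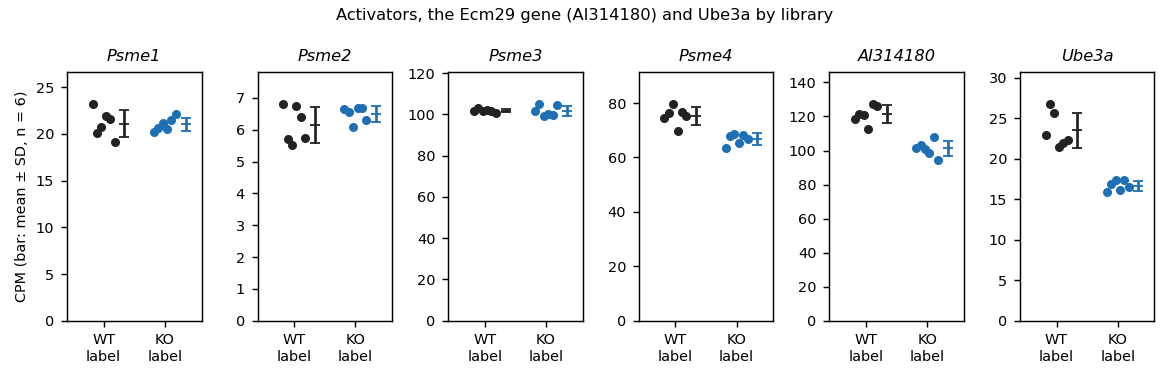
CPM in each library under the Wildtype (black) and Gadd45a-KO (blue) labels for 4 activator genes, AI314180 and Ube3a, with the mean and SD of 6 libraries at the right of each group and axes that start at 0. Psme4, AI314180 and Ube3a do not overlap between the labels, and Psme1, Psme2 and Psme3 do.

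Of the 7 assembly chaperones, 0 passed the test, and their log2 fold changes ran from -0.08 (Psmg2) to 0.06 (Psmd5). Psmg1 and Psmg2, which together start the alpha ring, ranged from 7.52 to 8.98 CPM (median 7.89) and from 12.1 to 14.1 CPM (median 13.6) in the Wildtype libraries, and from 7.41 to 8.14 CPM (median 7.82) and from 11.7 to 14.0 CPM (median 12.5) in the Gadd45a-KO libraries. Their log2 fold changes were -0.07 (SE 0.0570) and -0.08 (SE 0.0532, adjusted p = 0.560, edgeR), with intervals down to -12.4% and -12.8%. Psmg3 and Psmg4, the partners in the same pathway, ranged from 6.21 to 7.86 CPM and from 3.40 to 4.29 CPM against 6.89 to 7.49 CPM and 3.54 to 4.55 CPM, with values of 0.04 (SE 0.0628) and 0.01 (SE 0.0800). The groups overlapped for all 4.

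Among the chaperones of the cap base, Psmd5 had the highest level per kb of merged exons, 13.6 CPM per kb, and ranged from 43.4 to 48.1 CPM (median 45.5) in the Wildtype libraries and from 46.4 to 49.6 CPM (median 47.0) in the Gadd45a-KO libraries (log2 fold change 0.06, SE 0.0341, adjusted p = 0.532, edgeR). Psmd9 had the lowest per kb of merged exons, 4.53 CPM per kb (per kb of coding transcript Psmd10 was lower, at 7.75 against 7.96), and ranged from 19.5 to 22.8 CPM (median 20.8) and from 19.3 to 22.2 CPM (median 20.6), with a log2 fold change of -0.02 (SE 0.0444). Psmc3ip met the symbol rule but encodes a partner of a meiotic recombinase and no subunit. Its 1.65 to 2.38 CPM (median 2.17) and 1.67 to 2.32 CPM (median 1.95) overlapped, and its log2 fold change was -0.11 (SE 0.118).

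Of 37 further genes of the ubiquitin-proteasome pathway, 2 were lower in the Gadd45a-KO libraries and 0 were higher, where 2.62% of all tested genes were lower and 0.0244% higher, and the median log2 fold change was 0.01. AI314180, the gene of the proteasome adaptor Ecm29 that binds core and cap, ranged from 113 to 127 CPM (median 121) in the Wildtype libraries and from 94.5 to 108 CPM (median 101) in the Gadd45a-KO libraries. The groups did not overlap, as for 3.12% of all tested genes, and its log2 fold change was -0.26 (SE 0.0382, adjusted p = 0.000872, edgeR). Its merged exons span 11447 bases, and with an offset for length its value was -0.17. Ube3a, a ubiquitin ligase that neurons express from the maternal allele, ranged from 21.5 to 26.7 CPM (median 22.7) and from 15.9 to 17.4 CPM (median 16.7), also without overlap, with a log2 fold change of -0.50 (SE 0.0563, adjusted p = 0.000110).

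The other named genes of the pathway did not pass the test. Nfe2l1, the transcription factor that raises proteasome gene expression when the proteasome is impaired, ranged from 277 to 318 CPM (median 297) and from 288 to 319 CPM (median 307), with a log2 fold change of 0.04 (SE 0.0387). Adrm1, a ubiquitin receptor of the cap, had a log2 fold change of -0.04 (SE 0.0478). Pomp, which matures the core, had 0.06 (SE 0.0369), and Psmf1, an inhibitor of the core in vitro, had -0.02 (SE 0.0318). The groups overlapped for these 4 genes.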

How the data were processed

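RNA-seq libraries of 12 mouse hippocampi (6 per label) were analysed. According to the submitters' processing notes and the methods of the study, the authors aligned single-end reads with TopHat 1.4.1 to NCBIM37 (mm9) with Ensembl release 66 genes and counted reads per gene on the reverse strand with HTSeq 0.5.4p3, and they deposited raw read counts per gene. The authors used DESeq 1.16.0 for their own comparison.

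Here the counts were tested with edgeR 4.0.16 in R 4.3.3 (quasi-likelihood test, TMM factors, filterByExpr, Benjamini-Hochberg adjustment over 16399 genes, 1% FDR), and DESeq2 1.42.0 was an alternative. CPM used TMM factors. HTSeq's rows for reads on no gene (11.5% to 13.9% per library), ambiguous reads and non-unique alignments were left out. Symbols, coordinates and merged exon lengths came from Ensembl release 65 (37205 of 37991 identifiers matched). Of 38 related genes listed, 1 was not matched by symbol and was not analysed here. Ratios were tested by exact permutation with a prior count of 2, and the planned ratio of Psmb9 to Psmb6 was not computed because Psmb9 was listed at 0. Same-label libraries were compared pairwise and all differed beyond sampling noise. On simulated data for the comparison of both labels, edgeR found 196 of 200 genes changed by a log2 value of 1. It made 2 other calls among 16288 genes. Smaller changes, such as the -0.17 of Psme4, were not simulated.

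The members and gene lists were chosen with earlier results of these data known. Values are given for members past 1% FDR, the extremes in fold change and in level per kb of each particle, Psmb5 to Psmb11 with Psma8, all Psme and Psmg genes, and from the related list for those past 1% FDR with Nfe2l1, Adrm1, Pomp and Psmf1. Other genes are named for their values of shared sequence. Leaving out both libraries high in thalamic markers, and levels per kb of the transcript with the longest coding sequence, were alternatives chosen after seeing the data.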

Additional observations from a re-analysis of the deposited data

Results flagged for a closer look

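Over 96 groups of 6 libraries, a single library stood apart from the other 5 for 7 members by Dixon's criterion at 95%, where chance alone gives about 4.8. Of these, 5 were high values in Gadd45a-KO replicate 6. In that library Psmd6 was at 71.7 CPM (60.9 to 63.7 in the other 5), Psma4 at 72.2 CPM (60.2 to 64.2) and Psma7 at 72.8 CPM (64.8 to 66.5). Psmb2 was at 52.7 CPM there (47.6 to 49.1 in the other 5) and Psmb3 at 19.3 CPM (14.8 to 16.3). The median deviation of all tested members from their own mean was 0.08 on the log2 scale in this library, and between -0.06 and 0.05 in the other 11, and without it the median log2 fold change of the members was 0.02. The remaining values were Psmg4 at 4.55 CPM in Gadd45a-KO replicate 1 (3.54 to 3.86 in the other 5) and Psmb11 at 0.636 CPM in Gadd45a-KO replicate 3 (0.361 to 0.432).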

How the results depend on the processing

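Over all tested genes, 3.7% were lower with DESeq2, 4.43% at 5% FDR and 3.1% in a fit blocked on replicate number. In each of these settings, the number of members lower in the Gadd45a-KO libraries was 1. It was 0 with RLE size factors (adjusted p of Psme4 0.0106), library size alone (0.0229), no filter on low counts (0.0196), at least 10 counts in every library (0.0116), a length offset (0.0732, and 0.106 with the block), a GC offset (0.0462, and 0.0891 with the block) and without both libraries high in thalamic markers (0.0250). In the fits with 0 that held all 12 libraries, 1.63% (no filter) to 2.59% (at least 10 counts) of all tested genes were lower. That share was not counted for the fits with fewer libraries. Leaving out 1 library in turn gave 0 to 1 members lower, with 1 only without Wildtype replicate 4. The log2 fold change of Psme4 stayed below 0 in all of these, from -0.19 to -0.11. The related genes lower were 2 in most settings. At 5% FDR they were 3, with Uba6 added (log2 fold change -0.20, adjusted p = 0.0433, edgeR). They were 1 with the length offset and block, where AI314180 had an adjusted p of 0.0105 (0.00347 with the length offset alone). A pairing by replicate number was not established: same-numbered libraries correlated at -0.076 to 0.262 (mean 0.14, above 0.1 in 5 of 6 pairs, against a mean of -0.028 for different numbers), and 4 of 12 libraries correlated best with their own number, and the block gave 509 genes lower over all genes. The median log2 fold change of the members lay between 0.01 and 0.04 in every fit. Members and related genes near 0, none of them called in any fit, changed sign. With library size alone Psme1 was at 0.012, Psme3 at 0.016, Psmb10 at 0.014, Psma8 at 0.016 and Psmf1 at 0.00020. Without a filter Psme1 was at 0.00071, Psme3 at 0.0043, Psmb10 at 0.0040 and Psma8 at 0.0047, and with at least 10 counts Psme1 was at 0.0015, Psme3 at 0.0050 and Psmb10 at 0.0046. With DESeq2 Psme3 was at 0.0032, Psmb10 at 0.0029 and Psma8 at 0.0024, and with RLE factors they were at 0.0033, 0.0031 and 0.0035. With the GC offset Psmg4 was at -0.020, Psmc5 at -0.012, Psmb5 at -0.012 and Psma8 at 0.053, and with the block added at -0.022, -0.012, -0.011 and 0.038. With the block alone Psmb10 was at 0.00093. With the length offset Psmf1 was at 0.011, and 0.012 with the block. Without both libraries high in thalamic markers Psmd9 was at 0.014, Psmc5 at -0.0031 and Psmb10 at 0.025. Over the fits without 1 library the range was -0.026 to 0.032 for Psme1, -0.0026 to 0.012 for Psme3, -0.032 to 0.018 for Psmd9, -0.034 to 0.057 for Psmg4, -0.035 to 0.0063 for Psmd3, -0.0014 to 0.044 for Psmb5, -0.027 to 0.062 for Psmb10, -0.23 to 0.032 for Psmb11, -0.20 to 0.18 for Psma8, -0.052 to 0.0097 for Adrm1, -0.027 to 0.0046 for Psmf1 and -0.066 to 0.021 for the log2 ratio of Psmb10 to Psmb7. The causes were not tested. Counting depth limits Psma8 and Psmb11, with at most 23 and 35 reads per library.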
